A study of Mus musculus with 26 samples.

Results

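The subcortical maternal complex is described here through the transcripts of 7 genes, Nlrp5, Ooep, Tle6, Khdc3, Padi6, Nlrp2 and Zbed3, out of 24412 gene symbols measured by RNA-seq in mouse oocytes and early embryos. The genes were chosen by symbol from the known makeup of the complex, and all 7 were found in all 26 libraries' tables. Values are TPM (a transcript's share of the library, scaled to a fixed total), a level already divided by transcript length, so that levels of different genes can be set side by side. The libraries form 13 groups of 2. All samples carry the C57BL/6J strain label. The uninjected groups cover 3 stages, the MII oocyte, the early 2-cell embryo (E2C) and the late 2-cell embryo (L2C), each as control and as mDKO. The mDKO oocytes came from females with Zp3-Cre and floxed alleles of both Kdm3a and Kdm3b (Zp3-Cre; Kdm3a f/f; Kdm3b f/f), and mDKO embryos from such oocytes after in vitro fertilization by wild-type sperm. They lack the maternal supply of the H3K9 demethylases KDM3A and KDM3B but received a wild-type paternal genome. The Zp3 promoter drives Cre in the growing oocyte, when the members of the complex are themselves being transcribed. The sources used here do not give the alleles of the control females. Injected E2C groups were control with mCherry, mDKO with mCherry, mDKO with Kdm3aWT and mDKO with Kdm3aHA, and injected 4-cell groups (4C) were wild-type embryos with mCherry, Kdm3aWT or Kdm3aHA. The sources used here do not say what HA stands for. Each library was a pool of 12 to 20 embryos, so a value is an average over embryos, and fewer cells holding a transcript cannot be told apart from less of it per cell.

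The complex assembles in the cytoplasm of the growing oocyte, lies beneath the cortex of the egg and is passed to the cleaving embryo, where it is excluded from cell contacts. NLRP5 (also called MATER), OOEP (FLOPED) and TLE6 form its core, KHDC3 (FILIA) binds to the core, and PADI6 is needed for the cytoplasmic lattices, fibrous storage structures of the egg with which the complex is associated. NLRP2 and ZBED3 are later additions to the list of its proteins. Mouse embryos whose mothers lack Nlrp5, Ooep, Tle6 or Padi6 arrest early in cleavage, which makes these maternal-effect genes. The mRNAs stored by the oocyte are mostly degraded around the first cleavage, whereas the proteins last longer. Only transcripts were measured here.

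The members lie at 7 places on 5 chromosomes of GRCm38.p6, the assembly that mm10 represents. Nlrp5 lies on chromosome 7 from 23385889 to 23441923 and Nlrp2 on the same chromosome from 5298547 to 5351035. Ooep (78376903 to 78378588) and Khdc3 (73101381 to 73106631) are both on chromosome 9, 5.27 Mb apart. Tle6 is on chromosome 10 (81590904 to 81601185), Padi6 on chromosome 4 (140727355 to 140742643) and Zbed3 on chromosome 13 (95323605 to 95337842). Sequence just before the start site is shown for 4 members, since transcription in the oocyte sets the supply that the later stages draw on. Zbed3 and Khdc3 had the largest genotype differences in any single comparison. For Khdc3 this holds only in injected E2C embryos, where its control level was low (0.995 and 1.60 TPM). Ooep had a course that differed from that of the others, and Nlrp5 is the member for which the complex's core is best known. The stretches come from RefSeq windows that run from 250 bases before a start site, trimmed where an annotated exon begins. The Khdc3 stretch lies before the RefSeq window's start site but inside the gene span given above, which reaches farther upstream, in a part with no annotated exon. They are written 5′ to 3′ on the strand of the gene, and capitals mark CANNTG, the E-box that oocyte factors such as FIGLA bind.
Zbed3, chr13:95323355-95323604, plus strand: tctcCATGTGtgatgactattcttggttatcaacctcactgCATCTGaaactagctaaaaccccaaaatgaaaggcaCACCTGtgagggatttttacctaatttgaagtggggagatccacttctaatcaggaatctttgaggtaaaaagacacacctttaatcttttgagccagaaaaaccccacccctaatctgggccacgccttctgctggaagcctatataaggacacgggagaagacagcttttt
Khdc3, chr9:73102205-73102397, plus strand: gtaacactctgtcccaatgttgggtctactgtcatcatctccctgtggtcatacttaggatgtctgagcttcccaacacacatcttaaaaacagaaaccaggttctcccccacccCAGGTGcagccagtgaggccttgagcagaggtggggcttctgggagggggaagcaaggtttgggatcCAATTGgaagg
Ooep, chr9:78378726-78378838, minus strand: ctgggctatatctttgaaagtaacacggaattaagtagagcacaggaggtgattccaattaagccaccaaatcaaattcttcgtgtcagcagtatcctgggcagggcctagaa
Nlrp5, chr7:23385639-23385888, plus strand: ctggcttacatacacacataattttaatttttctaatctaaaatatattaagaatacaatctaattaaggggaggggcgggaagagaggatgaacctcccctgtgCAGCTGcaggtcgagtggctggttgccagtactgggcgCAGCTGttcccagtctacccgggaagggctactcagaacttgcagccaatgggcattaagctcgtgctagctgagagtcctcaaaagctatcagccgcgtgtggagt

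The Zbed3 stretch holds 3 CANNTG matches, those of Khdc3 and Nlrp5 hold 2 each, and the Ooep stretch, which is the shortest at 113 bases, holds 0. Counted over the full 300-base RefSeq windows (250 bases before the start to 50 after), 10 of the 11 windows of the 7 members held CANNTG, a motif that reads the same on both strands, against 72.3% of 32851 windows of all genes. Only Nlrp2 had no match. TAATTG, a word bound by the oocyte homeobox factor NOBOX, was searched on both strands and found in 2 of the 11 windows, one of Ooep and one of Padi6, against 8% of all windows. TAATTA, the related homeobox word that is its own reverse complement, was in 1 window (5.29% of all) and the TATA word TATAAA, on both strands, in 2 (13.6%). CANNTG is so frequent that its presence sets the members little apart from other genes. The words can share letters where they overlap and were counted separately, and a match describes letters only.

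Between 7649 and 12396 genes reached 1 TPM per library. TPM keeps no read depth, so no counting error can be given. The targeted genes followed their labels at MII: Kdm3a was at 8.46 ± 0.53 TPM (SD, n = 2) in control and 0.721 ± 0.0048 in mDKO oocytes, and Kdm3b at 25.8 ± 1.19 and 1.81 ± 0.083. Oocyte markers (Zp1, Zp2, Zp3, Gdf9, Bmp15, Oosp1) were all present in MII and 2-cell libraries. Early 2-cell markers of the Zscan4, Dux and Tcstv kind summed to 1213 and 1736 TPM in E2C control but 274 and 310 in E2C mDKO embryos, and to 796 and 598 in L2C control but 2492 and 2008 in L2C mDKO embryos. Sperm markers summed to at most 52.6 TPM in any library. MII libraries were made with another kit (TruSeq) than E2C and 4C libraries (SMART-Seq), and the sources used here do not give the kit of L2C, so stage and kit cannot be told apart.

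In control oocytes the members differed in level widely. Zbed3, which encodes a BED-type zinc finger protein that binds axin, stood at 32637 and 33766 TPM in replicates 1 and 2, the highest level of any gene in both libraries. The core members followed, Tle6 at 715 and 505 TPM, Nlrp5 at 669.6 and 363 and Ooep at 331 and 165. The peptidylarginine deiminase relative Padi6 was at 497 and 290.5 TPM. Replicates of Tle6, Nlrp5 and Padi6 overlapped in this order, as did those of Padi6 and Ooep, so their ranking is not resolved. Khdc3, a KH-domain RNA-binding protein gene, was lower at 105 and 55.4 TPM, and the NLR family gene Nlrp2 lowest at 45.8 and 36.0. Zbed3 alone made up 93.2% and 96.0% of the summed TPM of the 7 genes, and the 7 together 3.50% and 3.52% of the whole library.

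**Figure D1:**
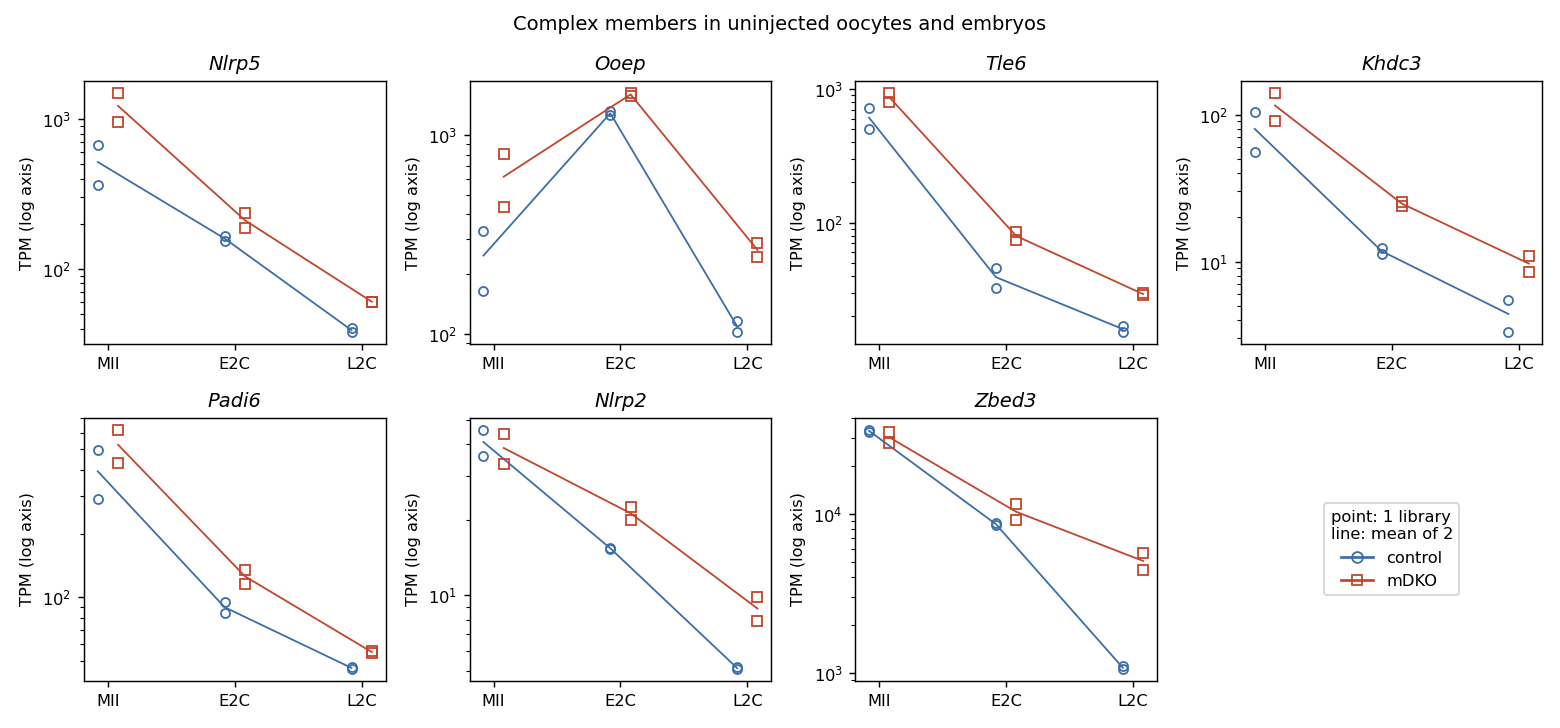
TPM of each member (log axis) in uninjected MII oocytes, E2C and L2C embryos. Each point is 1 library, circles for control and squares for mDKO, and lines join the means of 2 libraries. Levels fall from MII to L2C except for Ooep, which peaks at E2C at 1261 to 1635 TPM, and the genotypes lie farthest apart for Zbed3 at L2C. MII and E2C libraries were made with different kits.

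From MII to E2C in control, 6 of the 7 transcripts fell and Ooep rose, where 35.1% of 14316 genes tested were called higher and 37.0% lower (limma on log2(TPM + 1), adjusted p under 0.05 over all genes). Among 3657 tested genes with a mean of at least 30 TPM in control MII oocytes, 69.7% were called lower and 20.3% higher. All 7 members had such a mean, and the cutoff was chosen after the data were seen. Tle6 fell most, to 45.7 and 32.4 TPM, a log2 change of -3.93 ± 0.20 (SE; adjusted p = 1.27e-08). Khdc3 went to 12.4 and 11.2 TPM, Padi6 to 95.5 and 84.1, Nlrp5 to 165 and 154, and Nlrp2 to 15.4 and 15.4, with log2 changes of -2.59, -2.07, -1.62 and -1.34. Zbed3 went to 8754 and 8427 TPM (-1.95 ± 0.13) and stayed among the 12 most abundant transcripts. Against this course the core gene Ooep reached 1324 and 1261 TPM, 2.46 ± 0.31 above MII on the log2 scale (adjusted p = 2.09e-05). MII and E2C values did not overlap for any member, an order not counted over all genes and not read as a result. Since MII and E2C libraries were made with different kits, these changes and their p-values hold stage and kit together. Without Zbed3, Ooep made up 11.7% to 19.9% of the summed TPM of the other 6 genes at MII in both genotypes and 77.1% to 80.9% at uninjected E2C. Scaling libraries by median size factors moved the all-gene median of this step from 0.03 to 0.20, which left all 7 directions and calls as they were.

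From E2C to L2C in control, all 7 members fell (30.1% of genes were called lower and 35.5% higher). Of the genes with at least 30 TPM in control MII oocytes, 48.3% were called lower and 22.8% higher. Ooep had the steepest fall, to 102 and 116 TPM, which is 8.45% of its E2C mean and a log2 change of -3.55 ± 0.31. Zbed3 had a log2 change of -3.00 ± 0.13, to 1093 and 1055 TPM. Nlrp5 went to 37.8 and 40.3 TPM, Tle6 to 15.1 and 16.8 and Nlrp2 to 5.16 and 5.08. Padi6 fell least, by 0.93 ± 0.23, to 47.0 and 45.9 TPM, and kept 51.7% of its E2C mean. Khdc3 was at 5.49 and 3.31 TPM. Set against MII, control L2C embryos held between 2.62% (Tle6) and 44.0% (Ooep) of the oocyte level, and 3.23% for Zbed3. The kit of L2C is not given, so a kit difference may enter the L2C comparisons too.

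**Figure D2:**
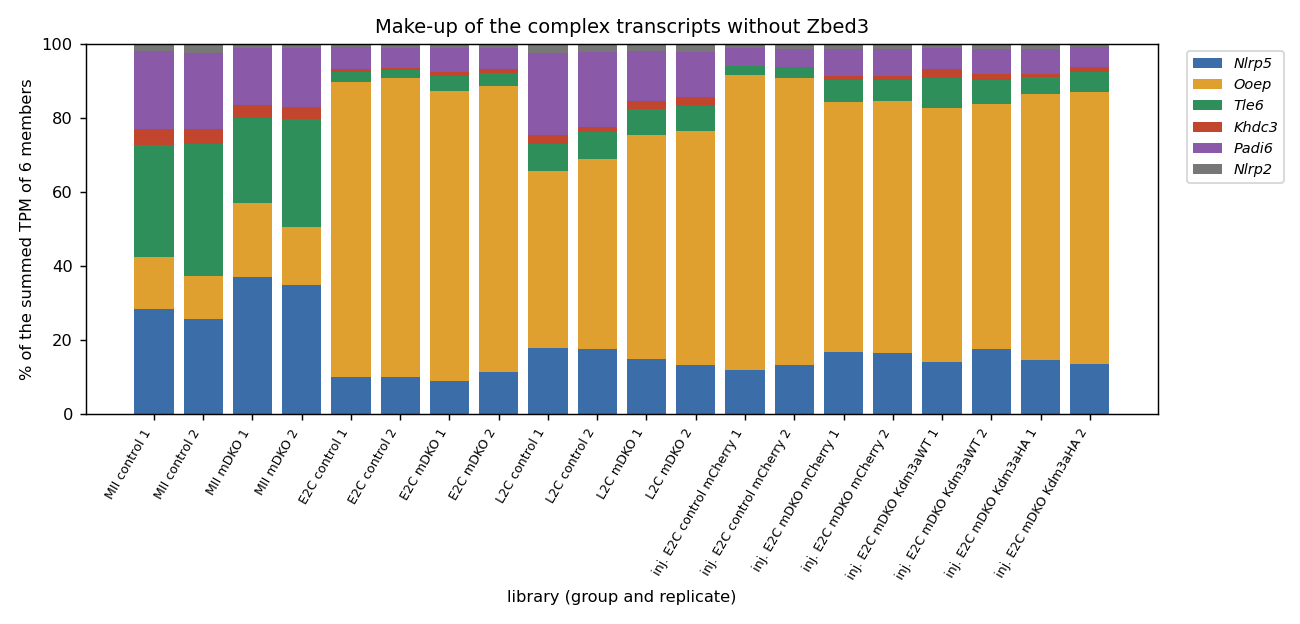
Share of each member in the summed TPM of the 6 genes other than Zbed3, 1 stacked bar per library in percent. Tle6 and Nlrp5 hold the larger shares at MII and Ooep the largest at E2C and L2C, with 77.1% to 80.9% at uninjected E2C. The kit differed between MII and E2C.

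In mDKO oocytes and embryos the course had the same directions: 6 members fell from MII to E2C while Ooep rose (31.7% of genes higher, 35.5% lower), and all 7 fell from E2C to L2C (31.9% higher, 20.8% lower). Of the genes with at least 30 TPM in control MII oocytes, 67.4% were called lower and 20.7% higher from MII to E2C. From E2C to L2C, 38.3% of them were called lower and 16.7% higher. The estimated amounts differed from control, but only the Zbed3 change from E2C to L2C passed a limma test of this difference, given below. Ooep rose by 1.44 ± 0.31 to E2C in mDKO against 2.46 ± 0.31 in control, a difference that did not pass (limma adjusted p = 0.243). Zbed3 fell by only 1.03 ± 0.13 from E2C to L2C and kept 49.1% of its E2C mean, against 12.5% in control. Across the 12 uninjected libraries the log2(TPM + 1) values of the 6 members other than Ooep correlated with each other at Pearson r of 0.90 to 0.99, and those of Ooep with the others at 0.16 to 0.43. These correlations describe 12 libraries that share stages and genotypes.

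At MII none of the 7 members passed the test between mDKO and control oocytes, where 0.845% of 10765 genes were called higher and 3.41% lower by limma. At an unadjusted p under 0.05, 3 of the 7 passed (Nlrp5, Ooep and Tle6), as did 2657 of the 10765 genes. Nlrp5 was at 1491 and 955 TPM in mDKO against 669.6 and 363 in control oocytes, a log2 difference of 1.27 ± 0.34 with adjusted p = 0.0984. Ooep was at 804 and 436 TPM against 331 and 165 (1.34 ± 0.41, adjusted p = 0.131). Tle6, the remaining core gene, was at 933 and 802 TPM against 715 and 505 (0.53 ± 0.18, adjusted p = 0.153). In each of these core genes both mDKO libraries lay above both control libraries. This order was not counted over all genes and is not read as a result. Khdc3 (140.3 and 90.3 TPM in mDKO), Padi6 (619 and 432) and Nlrp2 (43.9 and 33.5) overlapped with control. Zbed3 was at 27903 and 32509 TPM in mDKO, below both control libraries and still the most abundant transcript (-0.14 ± 0.09, adjusted p = 0.372). The median log2 difference over the members was 0.53, that over all genes -0.05. Replicate 1 lay above replicate 2 in 6 of 7 members in both genotypes, Zbed3 being the exception. Single control libraries moved these differences by over 1.5 times. Without control replicate 1, Nlrp5 and Tle6 passed the test (log2 differences 1.71 and 0.78, limma adjusted p = 0.0382 and 0.0424) and Ooep did not (1.84, adjusted p = 0.0559). Without control replicate 2 the log2 differences were 0.83 for Nlrp5, 0.84 for Ooep, 0.28 for Tle6, 0.11 for Khdc3 and 0.057 for Padi6, and none passed.

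At E2C, Tle6 and Khdc3 rose in mDKO embryos, by close to 2-fold, and 5 members did not pass (5.38% of 11140 genes were called higher and 8.99% lower). Tle6 was at 85.4 and 73.6 TPM in mDKO against 45.7 and 32.4 in control, a log2 difference of 1.02 ± 0.20 (adjusted p = 0.0132). Khdc3 was at 24.1 and 25.5 TPM against 12.4 and 11.2 (1.01 ± 0.20, adjusted p = 0.0131). For both, the lower mDKO library was well above the higher control library. Ooep was at 1635 and 1582 TPM in mDKO, with a log2 difference of 0.32 ± 0.10, and Padi6 at 135 and 116 with 0.48 ± 0.15 (limma adjusted p = 0.0747 and 0.0742). Nlrp5 stood at 188 and 235 TPM (0.39 ± 0.15), Nlrp2 at 22.4 and 20.0 (0.44 ± 0.20) and Zbed3 at 11444 and 9101 (0.25 ± 0.12). Both mDKO libraries lay above both control libraries also in the 5 members that did not pass. The share of all genes with this order was not counted, so it is not read as a result. The median log2 difference over the members was 0.44, against -0.01 over all genes. Genes with at least 30 TPM in control MII oocytes had a median of 0.12, with 8.78% called higher and 4.42% lower. The 2 calls rest on few libraries: without control replicate 2, and without the filter on low TPM, none of the members passed, and without mDKO replicate 2 there were 5.

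At L2C, 6 of 7 members were higher in mDKO embryos, and 19.1% of 12606 genes were called higher and 23.3% lower. Among the 3596 tested genes with a mean of at least 30 TPM in control MII oocytes, a cutoff chosen after the data were seen, 31.9% were called higher and 17.2% lower, so abundant oocyte transcripts in general were more often higher than lower. Zbed3 had the largest difference, 4395 and 5690.5 TPM in mDKO against 1093 and 1055 in control, a log2 difference of 2.22 ± 0.14 (adjusted p = 1.75e-04). Only 91 of the 12606 genes had a larger one. Ooep was at 244 and 286 TPM against 102 and 116, 1.27 ± 0.13 on the log2 scale (adjusted p = 5.75e-04). These were also the members with the steepest control fall from E2C to L2C. Both measures use the same control L2C libraries, so a low value there enlarges both.

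The differences of the remaining members at L2C were smaller. Khdc3 was at 8.44 and 11.0 TPM in mDKO against 5.49 and 3.31 in control (log2 difference 1.01 ± 0.27, limma adjusted p = 0.0233). Tle6 was at 28.6 and 29.8 TPM against 15.1 and 16.8 (0.83 ± 0.16, adjusted p = 0.00607). Nlrp5 was at 60.3 and 60.6 TPM against 37.8 and 40.3 (0.62 ± 0.13, adjusted p = 0.00922). At this stage mDKO and control libraries did not overlap in any member, including Padi6, which did not pass. This order was not counted over all genes and is not read as a result. Nlrp2 was at 7.90 and 9.80 TPM against 5.16 and 5.08 (0.68 ± 0.22, adjusted p = 0.0409). Padi6, at 54.6 and 55.8 TPM against 47.0 and 45.9, did not pass, with a log2 difference of 0.24 (95% interval -0.06 to 0.55, adjusted p = 0.170). The median over the members was 0.83 and over all genes close to 0 (-0.00066). Nlrp2 did not pass without any 1 of the 4 libraries, and Khdc3 did not without control replicate 2 or mDKO replicate 2 (limma adjusted p up to 0.236 and 0.0929). Both also lost the call without the filter on low TPM (adjusted p = 0.0850 and 0.0710), which left 4 members called, and Nlrp5 lost it with all 12 libraries in 1 fit (adjusted p = 0.0854).

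**Figure D3:**
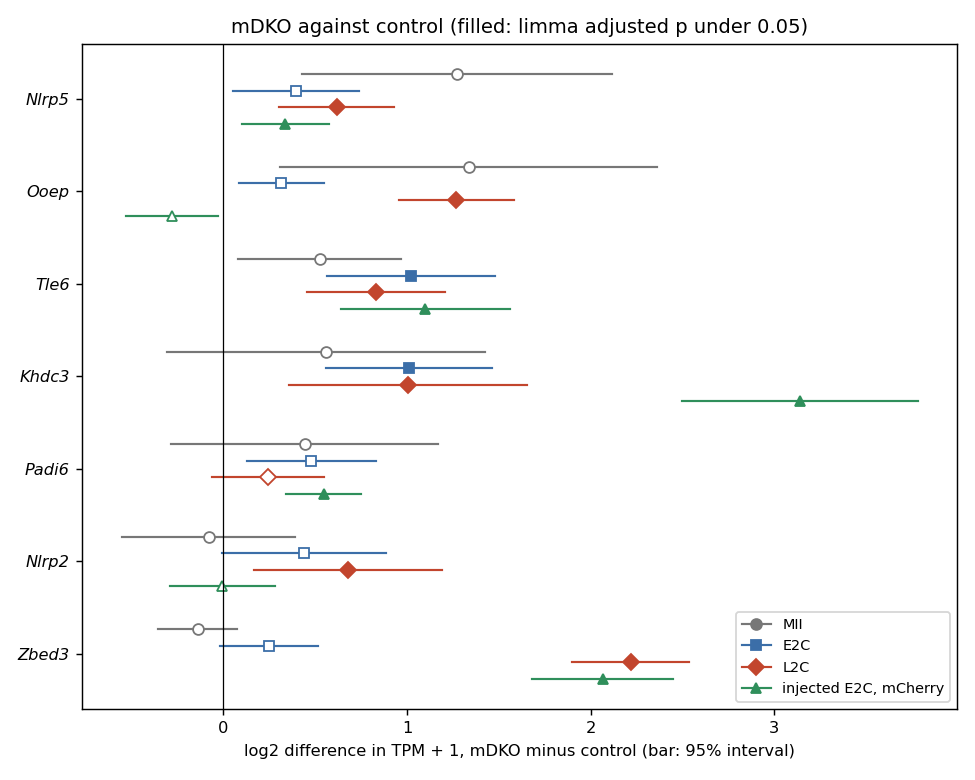
log2 difference in TPM + 1 between mDKO and control (points) with 95% intervals (bars) for each member at MII, E2C and L2C without injection and at E2C with mCherry injection, 2 libraries per group. Filled symbols passed limma at an adjusted p under 0.05. The widest interval is that of Ooep at MII (0.31 to 2.36), and the largest differences are those of Khdc3 in injected E2C (3.14) and of Zbed3 at L2C (2.22) and in injected E2C (2.06).

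Added up, the 7 transcripts made 0.131% and 0.128% of library TPM in control L2C embryos and 0.480% and 0.614% in mDKO. In injected E2C embryos the sum was 0.476% and 0.496% in control mCherry and 1.41% and 1.43% in mDKO mCherry libraries. Zbed3 carried most of both sums. Among the other 6, the share of Ooep at L2C was 48.0% and 51.1% in control against 60.4% and 63.2% in mDKO, whereas in injected E2C embryos it was 79.8% and 77.6% in control against 67.6% and 68.0% in mDKO.

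Whether the mDKO effect changed between stages was tested as a difference of differences over the 12 uninjected libraries. Between MII and E2C, 0 of 7 members passed (1.72% of 14316 genes higher, 2.16% lower by limma). Unadjusted p was under 0.05 for 2, Nlrp5 (-0.88 ± 0.37) and Ooep (-1.02 ± 0.43, adjusted p = 0.243 for both). Over all genes, 2588 of 14316 had an unadjusted p under 0.05 in this limma test. The estimated mDKO surplus of Nlrp5 and Ooep was larger at MII, where it did not pass for either gene. Without MII control replicate 2 these estimates of the change were -0.44 and -0.52. Between E2C and L2C, 1 of 7 passed, Zbed3, whose effect was larger at L2C by 1.97 ± 0.19 (adjusted p = 9.81e-05), where 13.2% of genes were higher and 12.5% lower. Ooep had a difference of 0.95 ± 0.43 (adjusted p = 0.133). For Tle6, Khdc3, Padi6, Nlrp5 and Nlrp2 the estimates lay between -0.24 and 0.24 and did not pass. Their 95% intervals were, in that order, -0.80 to 0.42, -0.97 to 0.96, -0.96 to 0.49, -0.60 to 1.04 and -0.34 to 0.83. For each gene, a change within its own interval is not excluded.

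Other transcripts moved at the same stages. The summed TPM of the 6 oocyte markers was 5554 and 5822 in E2C control against 8867 and 7942 in mDKO, and 3322 and 2958 in L2C control against 7500 and 7656 in mDKO. The 12 cumulus and granulosa markers summed at L2C to 47.0 and 50.7 TPM in control libraries, against 102 and 105 in mDKO, and at E2C to 116 and 112 against 195 and 235. Most of it was Serpine2, and 7 of the 12 were below 1 TPM in both mDKO libraries at either stage. Hba-a1 led the 5 blood markers, which summed to 183 and 312 TPM in L2C control and 28.9 and 29.3 in L2C mDKO. Early 2-cell marker sums in mDKO were lower than control at E2C and higher at L2C, as given above. The part of all these transcripts in the members' differences was not tested.

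Transcripts of proteins described as partners of the complex or of the lattices (7 of 8 listed symbols were in the tables) had 5 of 7 higher and 0 lower at L2C, where 19.1% of all genes and 31.9% of the abundant oocyte genes were called higher. The E3 ligase and hemimethylated DNA reader Uhrf1 rose from 9.34 to 43.5 TPM (log2 difference 2.11), Nlrp4f from 104 to 393 and the ubiquitin-conjugating enzyme gene Ube2d3 from 838 to 2322 (1.47). At E2C 1 partner rose (Uhrf1, 1.02) and at MII 1 (the actin-severing cofilin gene Cfl1, 0.68), with 0 lower at both. At E2C 5.38% of all genes were called higher and at MII 0.845%. Of 17 other maternal-effect genes, 10 rose and 1 fell at L2C, with the linker histone H1foo (2.17), Zar1 (2.11) and the histone demethylase Kdm1b (7.65 to 31.7 TPM) changing most. At E2C, 3 rose and 1 fell, H1foo by 1.83, Zar1 by 1.47 and Kdm1b by 1.47 upward. At MII, 2 rose and 0 fell.

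Of 8 oocyte transcription factors, 4 rose and 1 fell at L2C (19.1% of all genes higher, 23.3% lower), Lhx8 by 1.54 and Gtf2a1l by 1.52 upward and Nobox by 1.45. At MII 0 of the 7 tested passed in limma, with 2 at an unadjusted p under 0.05, and at E2C 1 rose (Gtf2a1l) and 1 fell, Figla, from 5.52 to 2.39 TPM. Of 13 tested gene relatives of the members that lie outside the complex, 0 rose, 4 fell and 9 did not pass at L2C, a share of lower calls near that of all genes (23.3%). Those that fell included Dppa5a, a KH-domain gene of the pluripotent embryo, from 2946.5 to 654 TPM (-2.18), Nlrp3 (-1.37) and Nlrp12 (-1.14). At E2C 0 rose and 1 fell, and at MII 0 of 10 passed in limma, with 5 at an unadjusted p under 0.05. Over all genes at MII, 2657 of 10765 had an unadjusted p under 0.05.

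The genes whose uninjected course was most like the mean of Nlrp5, Ooep, Tle6, Khdc3 and Padi6, among 6748 genes with a mean of at least 10 TPM, were Hist1h2bc (Pearson r = 0.991 over 12 libraries), Pdcl3 (0.989) and Tspan33 (0.982), followed by Tm2d1 and Pgam5 at 0.980. The nearest to Zbed3 was Anxa7 (0.998), which fell in control from 1337 to 591 to 132 TPM and stood at 365 TPM in mDKO L2C embryos, then Mapre1 and Armc8 at 0.993. Nlrp2 was followed most closely by Adprh (0.993), Hmgcs1 (0.992) and Cnot11 (0.991). Each of these 11 genes had a higher mean in mDKO than in control L2C embryos. They were picked by correlation over libraries that include L2C, so this shared direction is partly built in. These values rank genes over libraries that share stage and genotype and are a description.

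Injected E2C embryos were a separate set for the E2C genotype difference, here with mCherry in both genotypes. In them 5 of 7 members rose in mDKO while 0 fell (26.9% of 10960 genes were called higher and 20.0% lower). Of the 3579 tested genes with at least 30 TPM in control MII oocytes, 33.9% were called higher and 19.4% lower. Khdc3 was at 19.4 and 18.7 TPM in mDKO against 0.995 and 1.60 in control, a log2 difference of 3.14 ± 0.28 (adjusted p = 6.23e-05). Zbed3 was at 12230.0 and 12467 TPM against 2895 and 3008 (2.06 ± 0.17, adjusted p = 3.99e-05). Tle6 was at 110.3 and 106 TPM against 44.4 and 56.1, 1.10 ± 0.20 on the log2 scale (adjusted p = 0.00249). The groups did not overlap in these 3, nor in Padi6, Nlrp5 and Ooep (the last with mDKO lower), an order not counted over all genes. Padi6 (136 and 135 against 88.9 and 96.2 TPM) rose by 0.55 ± 0.09, adjusted p = 0.00142, and Nlrp5 (306 and 299.7 against 221 and 259) by 0.34 ± 0.10, adjusted p = 0.0274. Nlrp5 lost the call without control replicate 1 and without either mDKO library, with limma adjusted p up to 0.150.

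Ooep and Nlrp2 did not pass in this comparison, although Ooep passed as lower when only the 4 libraries compared were fitted (adjusted p = 0.00330 in limma). Ooep was at 1240.1 and 1236 TPM in mDKO and 1488 and 1516 in control, so that both mDKO libraries lay below both control libraries (-0.28 ± 0.11, adjusted p = 0.0656). This is the opposite order to uninjected E2C. Nlrp2 was at 22.6 and 22.6 TPM against 21.3 and 24.1, with a 95% interval of -0.29 to 0.28. The uninjected and injected sets were deposited in separate tables and were not tested against each other. Side by side, the control mean of Khdc3 was 9.09 times as high without injection as with mCherry, and that of Zbed3 2.91 times, whereas in mDKO Khdc3 had means of 24.8 TPM without and 19.0 with injection and Zbed3 a ratio of 0.832. For Tle6 the ratios were 0.778 in control and 0.735 in mDKO, and for Padi6 0.971 and 0.928. The larger Khdc3 and Zbed3 differences in the injected set thus go with lower control values. Oocyte markers summed to 6966 and 7326.5 TPM in injected control and 9499.5 and 9434 in mDKO mCherry libraries, and cumulus markers to 85.2 and 77.7 against 358 and 349, mostly Serpine2. Their part in the result was not tested.

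**Figure D4:**
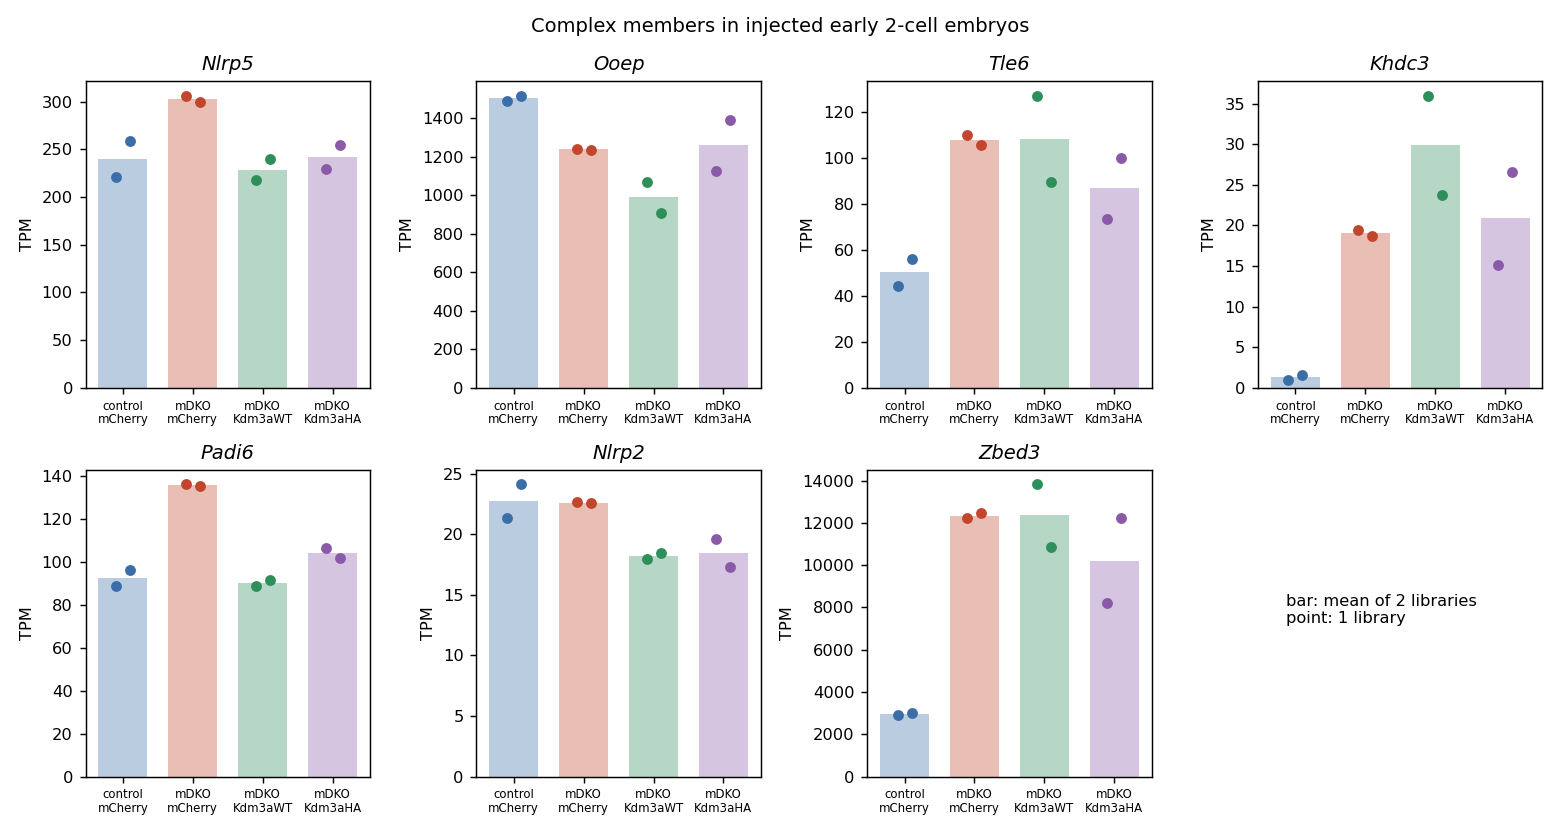
TPM of each member in injected E2C embryos, bars for the mean of 2 libraries and points for each library, linear axes from 0. Khdc3 and Zbed3 stand low in control mCherry (0.995 and 1.60, 2895 and 3008 TPM) and high in all 3 mDKO groups, while Padi6 with Kdm3aWT (88.7 and 91.6 TPM) lies near control.

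Injection of Kdm3aWT into mDKO embryos addressed which members move when transcript of 1 of the missing demethylases is supplied in excess. Of Kdm3a and Kdm3b, only 1 was tested in the injected E2C set. Its log2 difference was -1.15 in mDKO mCherry against control mCherry. With Kdm3aWT it was 11.18 above mDKO mCherry, and with Kdm3aHA 11.54 above it. Both constructs thus took this transcript far above its control level, and a return to that level was not tested. Compared with mDKO mCherry, Padi6 and Nlrp5 fell and 0 rose (0.949% of 10960 genes higher, 10.8% lower). Padi6 went to 88.7 and 91.6 TPM, a log2 difference of -0.58 ± 0.09 (adjusted p = 0.00530), and Nlrp5 to 218 and 239.6 (-0.41 ± 0.10, adjusted p = 0.0397). Tle6 (127 and 89.5 TPM) and Zbed3 (13823 and 10876) overlapped with mDKO mCherry, with log2 differences of -0.02 (95% interval -0.48 to 0.44) and -0.01 (-0.40 to 0.38), which turned positive, to 0.21 and 0.22, with size-factor scaling. Khdc3 was at 36.0 and 23.7 TPM, above both mCherry libraries, without passing (0.59 ± 0.28, adjusted p = 0.203). Ooep (1066 and 909.8 TPM, -0.33) and Nlrp2 (18.0 and 18.5, -0.30) lay below mCherry and did not pass. The median of all genes was -0.19 in this comparison and that of the members -0.30. Size-factor scaling moved the all-gene median to 0.0041 and the calls over all genes from 104 higher and 1184 lower to 331 and 557, and left Padi6 alone called, at -0.35 (limma adjusted p = 0.0452), with Nlrp5 at -0.17 (adjusted p = 0.282). Without either mDKO mCherry library none passed.

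Against control mCherry, mDKO embryos with Kdm3aWT still had 3 members higher and 1 lower (17.0% of genes higher, 29.6% lower). Khdc3 differed by 3.73 ± 0.28, Zbed3 by 2.05 ± 0.17 and Tle6 by 1.08 ± 0.20 on the log2 scale (limma adjusted p = 3.56e-05, 5.30e-05 and 0.00292). Ooep was lower, by -0.61 ± 0.11 (adjusted p = 0.00243). Padi6 and Nlrp5 overlapped with control, with differences of -0.04 (95% interval -0.24 to 0.17) and -0.07 (-0.31 to 0.17). This comparison shares its Kdm3aWT and its control libraries with the comparisons above. With scaling, the all-gene median moved from -0.17 to -0.0041 and the all-gene calls from 1866 higher and 3241 lower to 2459 and 2241, and Padi6 and Nlrp5 changed sign to 0.16 and 0.13.

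With Kdm3aHA in mDKO embryos, Padi6 was the member that passed against mDKO mCherry (1.54% of genes higher, 9.29% lower), at 106 and 102 TPM, -0.38 ± 0.09 with adjusted p = 0.0309. It did not pass with size-factor scaling (adjusted p = 0.0855) or when any 1 of the 4 libraries compared was left out (adjusted p = 0.0975 to 0.271). Without Kdm3aHA replicate 2, Zbed3 alone passed. Nlrp5 (229 and 255 TPM, -0.33 ± 0.10) also lay below both mCherry libraries, with adjusted p = 0.0861. Tle6 at 73.5 and 100.2 TPM, Zbed3 at 8226 and 12213 and Nlrp2 at 19.6 and 17.3 were lower in both libraries than with mCherry and did not pass. Ooep (1128 and 1392) and Khdc3 (15.1 and 26.6) overlapped with mCherry. Compared directly, Kdm3aWT and Kdm3aHA differed in 0 of 7 members by limma (1.32% of genes higher, 1.97% lower), with 2 at an unadjusted p under 0.05. These were Ooep, -0.35 (95% interval -0.60 to -0.10, adjusted p = 0.113), and Padi6, -0.21 (-0.41 to -0.00058, adjusted p = 0.215). Over all genes, 2537 of 10960 had an unadjusted p under 0.05 in this limma test. The test does not show that the constructs act alike, since for Khdc3 the interval ran from -0.12 to 1.16.

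In wild-type 4C embryos the 7 transcripts together made between 0.00376% and 0.0162% of library TPM, with little Zbed3 left, and their order was another. With mCherry, Khdc3 stood at 46.3 and 14.8 TPM. Kdm3aWT embryos had 15.1 and 20.9 TPM of it, Kdm3aHA embryos 124 and 18.4, so that all 3 groups overlapped. For Padi6 the values in the same order were 19.7 and 12.1, 34.3 and 23.8, and 26.1 and 23.8 TPM. These 2 members were the highest in all 6 libraries, and every 4C value of Khdc3 lay above its control L2C values of 5.49 and 3.31 TPM, in a separate table. Zbed3, the most abundant transcript of the oocyte, ranged from 3.68 to 20.4 TPM, Nlrp5 from 1.85 to 6.64, Ooep from 1.65 to 7.99 and Tle6 from 0.883 to 3.64. Nlrp2 was at or below 0.340 TPM and listed at 0 in 1 library, too low to be tested. With Kdm3aWT or Kdm3aHA against mCherry and with the constructs against each other, 0 of the 6 tested members passed in limma, at an unadjusted p under 0.05 too, and 0% of 9669 genes did in each of the 3 comparisons (776, 264 and 227 genes had an unadjusted p under 0.05). The log2 differences of members with Kdm3aWT ran from -0.54 (Khdc3) to 1.16 (Zbed3), with an all-gene median of 0.44 that scaling moved to 0.0089, and with Kdm3aHA from 0.08 (Zbed3) to 0.85 (Khdc3), with a median of 0.35.

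Other annotated genes overlap some members, and since the sources used here do not give the strand settings of the counting, reads shared with them cannot be apportioned. Zbed3 has the small nucleolar RNA gene Snora47 on its strand within the gene (95330600 to 95330737), which reached 2995.5 TPM at most. The start of Nlrp2 overlaps Gm5065 on the opposite strand, which reached 293 TPM at most. Khdc3 shares its strand and its gene body with the protein-coding model Gm20509, not analysed here. The values of these 3 members carry that uncertainty.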

How the data were processed

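RNA from pooled oocytes or embryos (26 libraries, 13 groups of 2) was analysed from tables of TPM that the authors deposited, 1 column per library. Per the submitters' processing notes, the tools included RSEM 1.3.1, STAR 2.7.10b, SAMtools 1.9 and Bowtie2 2.3.4.1, with the build mm10, and no roles were stated. The sources used here give neither the annotation nor strand settings. Library totals of 999986 to 1000000 TPM carry no read depth.

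Comparisons were fitted to log2(TPM + 1) in R 4.3.3 by limma 3.58.1, with a mean-dependent trend, two-sided tests and Benjamini-Hochberg adjustment over all genes that reached 1 TPM in 2 or more libraries of the fit. A call is an adjusted p under 0.05. The scale understates changes of low genes. Genotype comparisons without injection used the 4 libraries of a stage, stage changes and their differences all 12, and injected sets all 8 or all 6. The procedure was tested on simulated data. Alternatives were a pseudocount of 0.1, no filter, size-factor scaling, a replicate block, another set of libraries and leaving out each library.

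The members and gene lists were chosen with earlier results of these data known. Named genes are the 7 members and, of each other list, at most the 3 with the largest called change per uninjected comparison, plus Kdm3a and Kdm3b and the nearest patterns by Pearson r. Nothing in the labels ties the 2 pools of a group to different matings or days, and p-values then reflect the spread between these pools, which may be technical. All 26 columns matched a sample. Sequences and coordinates are from RefSeq GRCm38.p6, where all 7 members matched.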

Additional observations from a re-analysis of the deposited data

Results flagged for a closer look

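The mDKO effect on Zbed3 differed between the uninjected stages: the log2 difference between mDKO and control embryos was larger at L2C than at E2C by 1.97 ± 0.19 (limma adjusted p = 9.81e-05, 2 libraries per group). Zbed3 was at 11444 and 9101 TPM in mDKO and 8754 and 8427 in control at E2C, and at 4395 and 5690.5 against 1093 and 1055 at L2C. In injected E2C embryos the difference was 2.06 ± 0.17, close to the 2.22 ± 0.14 of L2C, so the small E2C effect holds for the uninjected set only. The sets were not tested against each other.

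Ooep moved in opposite directions in the E2C sets, with both mDKO libraries above both control libraries without injection (log2 difference 0.32) and both below with mCherry injection (-0.28). Neither difference passed limma (adjusted p = 0.0747 and 0.0656), but the injected one passed when only its 4 libraries were fitted (adjusted p = 0.00330, with 0.00330 to 0.189 over its alternatives), and the difference between the sets was not tested, since they were deposited as separate tables.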

How the results depend on the processing

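Of 1093 alternative values of single genes, 999 kept their direction and their side of the threshold, 20 newly passed it, 31 no longer did and 43 changed sign, of which 0 had a limma adjusted p under 0.05 in either setting. Members called at MII numbered 0, but 5 with a replicate block (Nlrp5, Ooep, Tle6, Khdc3 and Padi6 higher), 2 with all 12 libraries in 1 fit and 0 to 2 with single libraries left out. Of the E2C calls, 2 in number, there were 0 without a filter on low TPM, 1 with all 12 libraries and 0 to 5 with single libraries left out. The 0 calls of the change in effect from MII to E2C became 0 to 2, the latter without MII control replicate 1. For Kdm3aWT against mDKO mCherry, 2 calls became 1 without a filter, 1 with size-factor scaling and 0 to 2 with libraries left out. For Kdm3aHA, 1 call became 0 with scaling, 2 in a fit of the 4 libraries alone and 0 to 1 with libraries left out. The cause was not tested.

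Replicate numbers are shared between groups, and the correlation of same-numbered deviations was 0.36 at MII and -0.08 to 0.19 elsewhere, apart from -0.12 for Kdm3aWT against Kdm3aHA. With 2 pairs they count as sharing a number only. The block moved the count of member calls by over 1.5 times only at MII. A crossed pairing for Kdm3aWT against Kdm3aHA, added after seeing the data, left 0 calls.

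Signs that changed with size-factor scaling were those of Nlrp2 at MII (0.0066), of Padi6 in the change from MII to E2C (-0.021), of Tle6 and Zbed3 for Kdm3aWT against mDKO mCherry (0.21 and 0.22), of Nlrp5 and Nlrp2 for Kdm3aWT against Kdm3aHA (0.047 and 0.11), of Nlrp5 and Padi6 for Kdm3aWT against control (0.13 and 0.16), and at 4C of Tle6 with Kdm3aWT (-0.041) and Zbed3 with Kdm3aHA (-0.32). A pseudocount of 0.1 gave 0.089 for Khdc3 in the change from E2C to L2C. With single libraries left out, the log2 values that crossed 0 ranged as follows. Nlrp2 ran from -0.27 to 0.11 at MII, from -0.090 to 0.080 in injected mDKO against control, and from -0.099 to 0.070 for Kdm3aWT against Kdm3aHA. Padi6 ran from -0.35 to 0.42 in the change from MII to E2C and from -0.094 to 0.019 for Kdm3aWT against control, where Nlrp5 ran from -0.18 to 0.045. In the change from E2C to L2C, Khdc3 ran from -0.30 to 0.29 and Tle6 from -0.43 to 0.052. For Kdm3aWT against mDKO mCherry, Tle6 ran from -0.27 to 0.23 and Zbed3 from -0.18 to 0.16, and for Kdm3aHA Ooep from -0.13 to 0.17 and Khdc3 from -0.32 to 0.46. At 4C with Kdm3aWT, Khdc3 ran from -1.33 to 0.25 and Tle6 from -0.10 to 0.64. With Kdm3aHA, Khdc3 ran from -0.50 to 2.19 and Zbed3 from -0.54 to 0.70. Between the constructs, Ooep ran from -0.13 to 0.89, Padi6 from -0.063 to 0.45, Nlrp5 from -0.51 to 0.70 and Tle6 from -0.66 to 0.052.

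Size-factor scaling moved calls over all genes, higher and lower, from 5023 and 5300 to 5698 and 4665 for control MII to E2C, from 4536 and 5080 to 5134 and 4535 for mDKO, and from 169 and 1018 to 348 and 746 for Kdm3aHA against mDKO mCherry. TPM gives no read depth, so the precision of low members, Nlrp2 and the 4C values above all, cannot be stated.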
